A study of Oryza sativa with 6 samples.

Results

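Tubulins and actin-related proteins were followed through the harsher of a pair of seed ageing treatments in rice. Genes were taken by name: a symbol or synonym that begins as a tubulin name (TUB, with R or Os before it in some cases) or as an actin-related protein name (ARP and a number) and that the annotation of the array links to a probe set as its only gene. Of 18 such genes, 17 had a probe set, out of 17905 genes on the array, and they held 27 probe sets. They comprised 2 alpha-tubulin genes (TID1 and TUBA1), 8 beta-tubulin genes (TUB1, TUB2, RTUB-2, RTUB-1, TUB5, TUB6, TUB7 and TUB8), 1 gamma-tubulin gene (TUBG2) and 6 actin-related protein genes (ARP3, ARP4, ARP6, ARP7, ARP8 and ARP9). RTUB-2 is also named TUB3, and RTUB-1 is also named TUB4. ARP2 matched by name but was linked to no probe set and was not analysed here.

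The samples were embryonic axes of mature seeds of Oryza sativa cultivar Nipponbare, 3 arrays per temperature. All seeds were first held for 3 days at 25 °C and 85% relative humidity, then warmed for 14 days at 40 °C or 45 °C at that same humidity, and at the end dried for 3 days at 32% relative humidity and 25 °C. The sample descriptions put the warm step at 15 days instead, and the tissue field says seed where the protocol says embryonic axis. The labels describe 40 °C as a loss of vigour and 45 °C as a loss of germination, so the comparison asks how transcript levels differ between weakened and non-germinating seeds. Unaged seeds were not analysed here, so neither group is a baseline. Whether the 3 samples of a temperature came from separate seed lots is unstated, so the spread between these RNA samples may be technical. Each SE, interval and p-value from limma, the linear model used below, combines that spread with the spread of all probe sets, or all pairs, in the fit.

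Microtubules are hollow polymers of alpha- and beta-tubulin dimers, and gamma-tubulin complexes start their growth. In plant cells they form the cortical arrays that guide cellulose deposition, and the spindle and phragmoplast of dividing cells. Dry seeds hold few assembled microtubules, and the arrays are rebuilt during imbibition, before the axis elongates. Actin-related proteins share the fold of actin. ARP2 and ARP3 belong to the Arp2/3 complex, which nucleates branched actin filaments. Others, such as ARP4, ARP6 and ARP7, are nuclear proteins in Arabidopsis. ARP4 and ARP6 are subunits of chromatin-remodelling complexes there, and ARP6 takes part in placing the histone variant H2A.Z.

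Values are deposited log2 expression values, and a change is the 45 °C mean minus the 40 °C mean. Of the 27 probe sets, 23 (16 genes) reached a mean of 4 over the 6 arrays and were tested. With limma and Benjamini-Hochberg adjustment, 0 of the 23 reached an adjusted p of 0.05, and neither did any of the 22214 probe sets tested (0% called), although 4256 of those had an unadjusted p under 0.05. The smallest adjusted p was 0.163 among these genes and 0.108 overall. Changes below are therefore descriptions of 3 arrays against 3, read against the spread of the arrays. The level also shifted as a whole: the median of the tested probe sets was 6.45 to 6.55 per array at 40 °C and 6.23 to 6.25 at 45 °C. The median change was -0.17 as deposited and 0.09 once every array had been centred on its own median. Quantile normalization gave 0.02 and cyclic loess -0.02. A lower value in bulk tissue may be fewer cells of a type or less RNA per cell, which cannot be told apart.

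Replicate 2 at 40 °C stood apart, with a lowest correlation of 0.927 with its group, and its control transcripts read 2.99 higher at the 3-prime than at the 5-prime end (log2), against 1.66 to 2.03 in the other arrays. Among the 23 probe sets it held the highest value of the 40 °C group in 14, while it did so in 44.8% of all probe sets tested. Embryo markers (8 of 8 genes at a mean of 4 or above) had a summed log2 level of 15.67 to 15.76 at 40 °C and 15.61 to 15.67 at 45 °C. Endosperm markers reached 12.39 to 12.98 and 12.29 to 13.29 (8 of 10 genes), with GLUB-4 near the floor at 1.28 and 1.24. Aleurone and scutellum markers (5 of 5) were at 12.75 to 12.83 and 12.34 to 12.39, which does not overlap. Most of that signal was pinA, at a mean of 12.55 and 12.05. By gene, 4 of these 5 were lower at 45 °C, against 78.7% of all genes, and 1 was lower without overlap, against 23.4%. Of the 8 endosperm genes 3 were lower and 5 higher, with a median change of 0.31, against -0.26 for all genes. Without overlap 1 endosperm gene was higher, against 2.1% of all genes, and 0 were lower. Of the 8 embryo genes 7 were lower, 2 of them without overlap. Of the 8 cell division genes 6 were lower, 1 of them without overlap. Green tissue markers (1 of 3) were at 5.48 to 5.70 and 4.07 to 5.89, with RBCS1 at 1.36 and 1.82 and CAB2R at 2.03 and 2.57. Cell division genes (8 of 31) were at 9.70 to 10.07 and 9.63 to 9.70. Their part in the results below was not tested.

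Among tubulins, 13 of 15 tested probe sets were lower at 45 °C as deposited, but 9 of 15 after median centring and 10 of 15 after quantile normalization or cyclic loess. With the actin-related proteins the count was 19 of 23, where 64.4% of all tested probe sets were lower. Counted with the brightest probe set of each gene, 13 of 16 genes were lower (81.2%), close to the 78.7% of all genes. Median centring left 12 of 23 probe sets lower (42.4% of all), quantile normalization 14 (48.6%) and cyclic loess 14 (51.5%). Counted by gene, median centring left 6 of 10 tubulins and 1 of 6 actin-related proteins lower, against 51.1% of all genes. Without overlap between the groups, 6 tubulin probe sets were lower (TID1 with 2, and TUB7, RTUB-1, TUB1 and TUBG2) and 1 was higher (RTUB-2). Over all tested probe sets 17.8% were lower in this way and 10.8% higher, 28.7% in all. After median centring 4 tubulin probe sets remained below the 40 °C group without overlap, where 6.81% of all did and 20.8% lay above. These were 2 of TID1 and those of TUB7 and RTUB-1, and the RTUB-2 probe set stayed above. After quantile normalization or cyclic loess 5 were lower, the fifth being TUB1, against 9.04% and 10.5% of all (15.9% and 13.3% were higher). The plot of tubulin values shows each array.

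**Figure D1:**
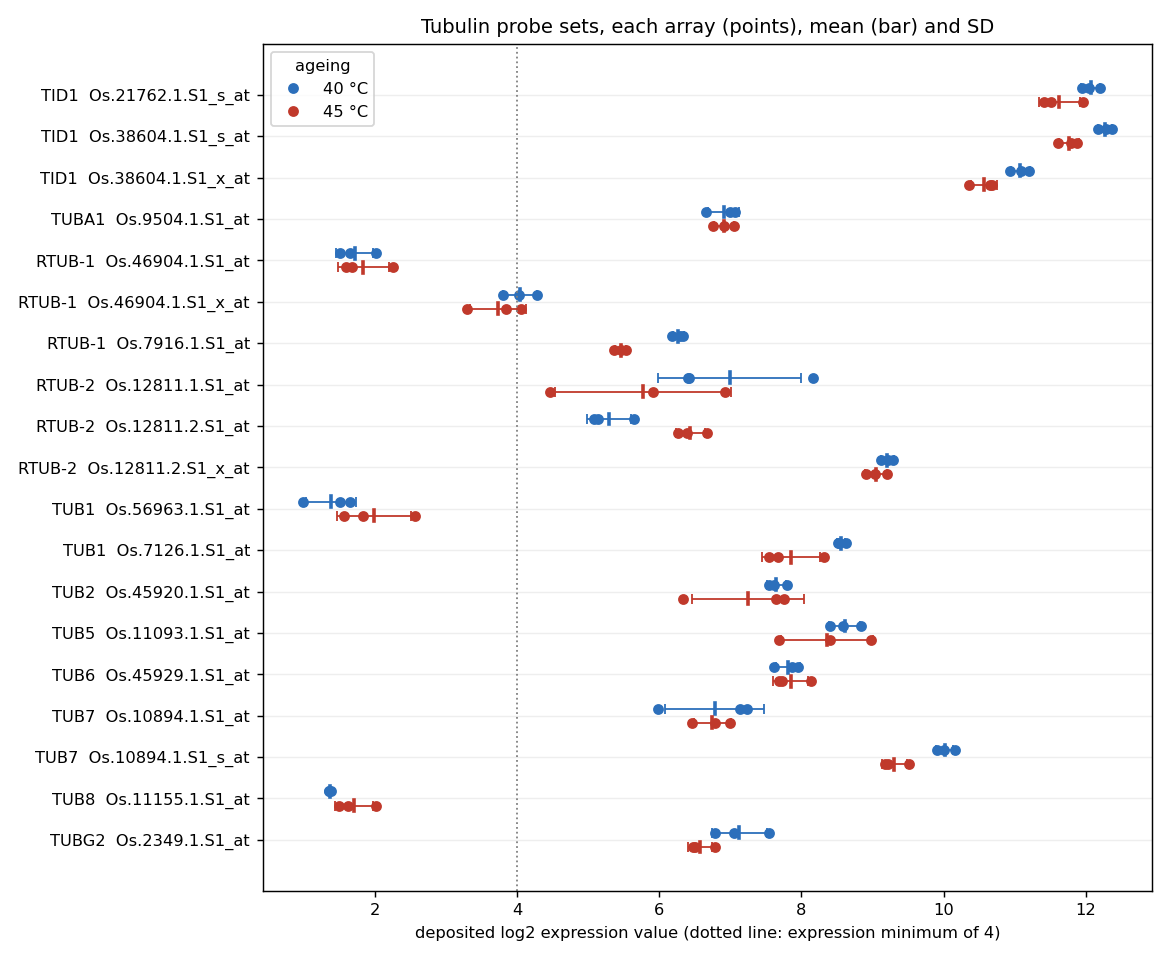
Deposited log2 values (horizontal axis) of the 19 tubulin probe sets in the 6 arrays. Points are arrays, thick bars means and whiskers the SD (n = 3) of the 40 °C and 45 °C groups, and the dotted line is the expression minimum of 4. For TID1 2 of 3 probe sets are lower at 45 °C without overlap. So are the shared TUB7 probe set and the tested ones of RTUB-1, TUB1 and TUBG2, where 17.8% of all tested probe sets were. RTUB-2 holds 1 probe set that is higher without overlap, where 10.8% of all tested were. TUB8, near the floor and not tested, is also higher without overlap.

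TID1, an alpha-tubulin gene whose mutant is known in rice for twisted growth, was measured by 3 probe sets that gave nearly the same change. For Os.38604.1.S1_s_at the log2 values were 12.29, 12.37 and 12.17 at 40 °C and 11.88, 11.80 and 11.61 at 45 °C. All arrays at 45 °C lay below all arrays at 40 °C. The change was -0.51 ± 0.10 (SE), a level 1.42-fold higher at 40 °C (95% interval of the log2 change -0.75 to -0.27, limma adjusted p = 0.163). It was -0.25 after median centring and -0.42 after cyclic loess. The companion probe set Os.38604.1.S1_x_at, made from the same sequence, changed by -0.51 ± 0.13 (SE) on the deposited scale. The third, Os.21762.1.S1_s_at, had 12.05, 12.20 and 11.95 at 40 °C and 11.96, 11.51 and 11.42 at 45 °C. Its groups overlapped in 1 array, replicate 1 at 45 °C, and its change was -0.44 ± 0.15 (SE). Names ending in s mark probe sets whose probes match several transcripts, and names ending in x those with some probes that match other sequences. Signal of such probe sets may include other tubulin transcripts.

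TUBA1, the other alpha-tubulin gene, had 7.0, 6.66 and 7.07 at 40 °C and 7.05, 6.76 and 6.91 at 45 °C. The groups lay on top of each other, with equal means of 6.91. The 95% interval of the change ran from -0.53 to 0.52, so changes as large as that of TID1 are only just inside it. After centring, quantile normalization or cyclic loess the change was 0.25.

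RTUB-1, a beta-tubulin gene, had close replicates and lower values at 45 °C. Its probe set Os.7916.1.S1_at had 6.29, 6.34 and 6.18 at 40 °C and 5.46, 5.54 and 5.37 at 45 °C. All arrays at 45 °C lay below those at 40 °C, and the SD was 0.08 in either group (n = 3). The change was -0.81 ± 0.23 (SE), 1.76-fold higher at 40 °C, with limma adjusted p = 0.180. It was -0.56 after median centring and -0.63 after cyclic loess. With each array left out in turn it ran from -0.86 to -0.77. Its other probe sets were under the minimum, with means over the arrays of 3.88 and 1.78, and were not tested.

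TUB7, a beta-tubulin gene, differed between its probe sets. The shared one, Os.10894.1.S1_s_at, had 9.91, 10.16 and 10.01 at 40 °C and 9.52, 9.18 and 9.22 at 45 °C, without overlap. Its change was -0.72 ± 0.15 (SE), 1.65-fold higher at 40 °C (limma adjusted p = 0.165), -0.46 after median centring and -0.54 after cyclic loess. The more specific probe set from the same sequence, Os.10894.1.S1_at, had 7.23, 5.98 and 7.14 at 40 °C and 6.79, 6.99 and 6.46 at 45 °C. Replicate 2 at 40 °C was the lowest of the 6 arrays there, and the groups overlapped, with a change of -0.04 ± 0.37 (SE). Without that array the change was -0.44.

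TUB1, a beta-tubulin gene, had 8.51, 8.63 and 8.53 at 40 °C and 7.55, 7.67 and 8.32 at 45 °C in Os.7126.1.S1_at. Replicate 3 at 45 °C lay close to the 40 °C arrays while the other 2 were lower. The change was -0.71 ± 0.23 (SE), 1.63-fold higher at 40 °C (limma adjusted p = 0.203), and -0.94 without that array. A further TUB1 probe set was near the floor, with a mean of 1.69, and was not tested.

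TUBG2, the gamma-tubulin gene, had 7.05, 7.55 and 6.79 at 40 °C and 6.50, 6.47 and 6.78 at 45 °C. The groups only just failed to overlap, at 6.79 and 6.78. The change was -0.55 ± 0.27 (SE), with limma adjusted p = 0.295, and -0.34 without replicate 2 at 40 °C, which held the highest value. The groups overlapped after each of the 3 scalings.

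TUB2, TUB5 and TUB6, all beta-tubulin genes, showed overlapping groups. TUB2 had 7.62, 7.80 and 7.54 at 40 °C and 7.75, 7.65 and 6.34 at 45 °C, so that 1 array, replicate 3 at 45 °C, set its change of -0.41 (0.05 without it). TUB5 had 8.59, 8.84 and 8.40 at 40 °C and 8.98, 7.69 and 8.41 at 45 °C, a change of -0.25 ± 0.32 (SE), whose sign turned without replicate 2 at 45 °C (0.09) and after median centring (0.01). TUB6 had 7.87, 7.62 and 7.95 at 40 °C and 7.73, 7.68 and 8.13 at 45 °C, a change of 0.03 ± 0.21 (SE). TUB8, known in rice from anthers, was near the floor in all arrays, from 1.36 to 2.02, and was not tested.

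RTUB-2, a beta-tubulin gene, had 3 probe sets that disagreed. Os.12811.2.S1_at had 5.64, 5.14 and 5.09 at 40 °C and 6.67, 6.27 and 6.39 at 45 °C. Every array at 45 °C was above every array at 40 °C. The change was 1.15 ± 0.27 (SE), 2.22-fold higher at 45 °C (95% interval of the log2 change 0.52 to 1.79, limma adjusted p = 0.172). Median centring gave 1.41 and cyclic loess 1.33, and with each array left out in turn the change ran from 1.04 to 1.33. Os.12811.2.S1_x_at, made from the same sequence and the brightest of the 3, had 9.29, 9.22 and 9.12 at 40 °C and 8.91, 9.21 and 9.04 at 45 °C. Its groups overlapped, and the change was -0.16 ± 0.15 (SE), but 0.10 after median centring and 0.04 after quantile normalization or cyclic loess. Os.12811.1.S1_at, made from another sequence, had 6.42, 8.16 and 6.41 at 40 °C and 4.47, 5.92 and 6.93 at 45 °C. Its arrays ranged widely within both groups, by SDs of 1.01 and 1.24, and overlapped. Its change of -1.22 ± 0.70 (SE) shrank to -0.64 when replicate 2 at 40 °C was dropped and to -0.57 when replicate 1 at 45 °C was.

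Actin-related proteins had 1 probe set, of ARP9, that was higher at 45 °C without overlap, and small or overlapping differences in most others. As deposited, 6 of 8 probe sets were lower at 45 °C, but 3 of 8 after median centring and 4 of 8 after quantile normalization or cyclic loess, against 64.4%, 42.4%, 48.6% and 51.5% of all tested probe sets in that order. Counted with the brightest probe set of each gene, 4 of 6 genes were lower as deposited (66.7%), against 78.7% of all genes. The groups did not overlap for ARP7 and ARP8, which were lower, and for 1 probe set of ARP9, which was higher. Over all tested probe sets 17.8% were lower and 10.8% higher in this way. After each of the 3 scalings ARP7 and that ARP9 probe set kept the separation and ARP8 did not. The shares of all were then 6.81% lower and 20.8% higher with median centring. They were 9.04% and 15.9% with quantile normalization, and 10.5% and 13.3% with cyclic loess. The values of all 8 probe sets are in the plot of actin-related proteins.

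**Figure D2:**
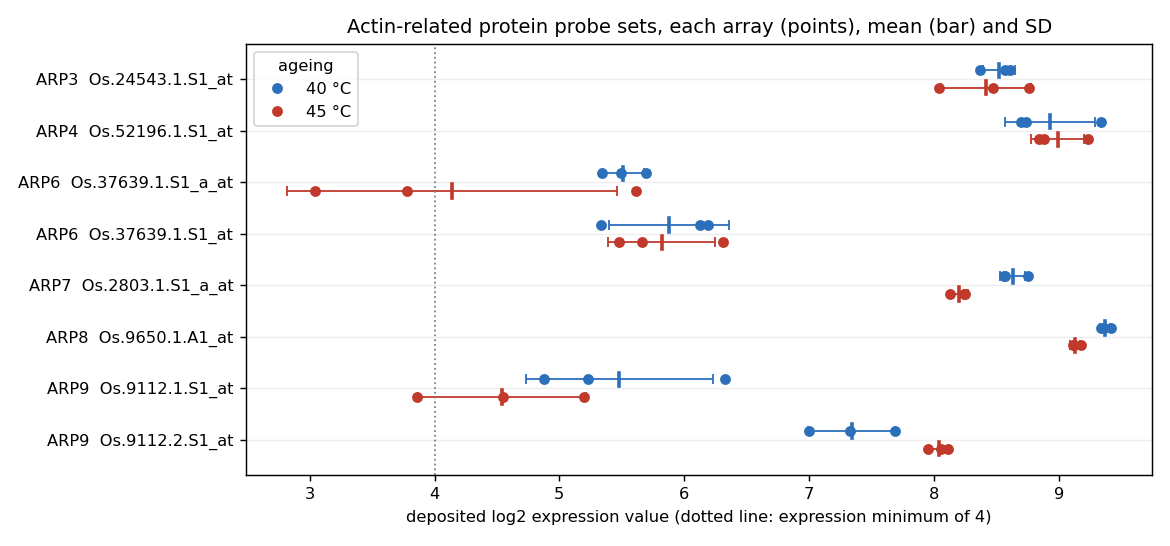
Deposited log2 values (horizontal axis) of the 8 probe sets of actin-related protein genes in the 6 arrays. Points are arrays, thick bars means and whiskers the SD (n = 3) of the 40 °C and 45 °C groups, and the dotted line is the expression minimum of 4. The brighter ARP9 probe set is higher at 45 °C without overlap, and the other ARP9 probe set is lower on average with overlap.

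ARP3, of the Arp2/3 complex, had 8.37, 8.57 and 8.61 at 40 °C and 8.04, 8.76 and 8.47 at 45 °C. The 45 °C arrays spanned the whole 40 °C range, and the change was -0.09 ± 0.22 (SE), with the sign turned after each scaling (0.11 to 0.16). ARP4, a subunit of several chromatin complexes, also overlapped, with 8.74, 9.34 and 8.70 at 40 °C and 8.84, 8.88 and 9.23 at 45 °C. Its 95% interval of the log2 change was -0.45 to 0.57.

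ARP7, a nuclear protein needed for normal development in Arabidopsis, had 8.57, 8.75 and 8.56 at 40 °C and 8.24, 8.13 and 8.25 at 45 °C. The change was -0.42 ± 0.16 (SE), 1.34-fold higher at 40 °C (limma adjusted p = 0.226), -0.17 after median centring and -0.20 after cyclic loess. ARP8, which in Arabidopsis also carries an F-box, had replicates within 0.08 of each other, with 9.34, 9.42 and 9.36 at 40 °C and 9.11, 9.18 and 9.12 at 45 °C. Its change of -0.24 ± 0.13 (SE) was close to the shift of the arrays as a whole, and was 0.02 after median centring and -0.04 after cyclic loess.

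ARP6 was measured by 2 probe sets from the same sequence. Os.37639.1.S1_a_at, a name that marks alternative transcripts of 1 gene, had 5.34, 5.49 and 5.69 at 40 °C and 3.04, 3.78 and 5.61 at 45 °C. At 45 °C 2 of 3 arrays were under the minimum of 4 and the third was at the 40 °C level. The change was -1.37 ± 0.60 (SE), with limma adjusted p = 0.266, and ranged from -2.10 without replicate 3 at 45 °C to -0.82 without replicate 1 at 45 °C. Os.37639.1.S1_at had 5.33, 6.13 and 6.19 at 40 °C and 5.66, 5.48 and 6.31 at 45 °C, with overlap and a change of -0.06 ± 0.35 (SE).

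ARP9 was measured by 2 probe sets from different sequences. The brighter, Os.9112.2.S1_at, had 7.0, 7.69 and 7.33 at 40 °C and 7.95, 8.06 and 8.11 at 45 °C. The 45 °C arrays were close together and all above the 40 °C arrays. The change was 0.70 ± 0.23 (SE), 1.62-fold higher at 45 °C (95% interval of the log2 change 0.17 to 1.23, limma adjusted p = 0.2). It was 0.96 after median centring and 0.94 after cyclic loess, and 0.53 without replicate 1 at 40 °C. The dimmer, Os.9112.1.S1_at, had 5.23, 4.88 and 6.33 at 40 °C and 3.86, 5.20 and 4.55 at 45 °C. Those groups overlapped, with a change of -0.94 ± 0.47 (SE) that was -0.52 without replicate 3 at 40 °C.

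At an unadjusted p under 0.05, 7 of the 23 probe sets were lower and 2 higher at 45 °C, while 13.8% of all tested were lower and 5.37% higher. The 7 were those of TID1 (3 probe sets), RTUB-1, TUB1, TUB7 and ARP7, and the 2 were those of RTUB-2 and ARP9. In either direction that was 9 of 23, against 19.2%. Counted with the brightest probe set of each gene, 5 of 16 were lower and 1 higher, against 17.3% and 0.997% of 11639 genes. Without overlap 7 of the 16 were lower and 1 higher, against 23.4% and 2.1%. The median change of the 16 genes was -0.24 and that of all genes -0.26. It was -0.46 for the 10 tubulin genes and -0.08 for the 6 actin-related protein genes, and -0.20 and 0.18 after median centring, where that of all genes was -0.01. The difference between the families was not tested. After median centring 3 probe sets were lower and 2 higher at that unadjusted p, against 4.83% and 14.7% of all tested. The plot of changes sets the scalings side by side.

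**Figure D3:**
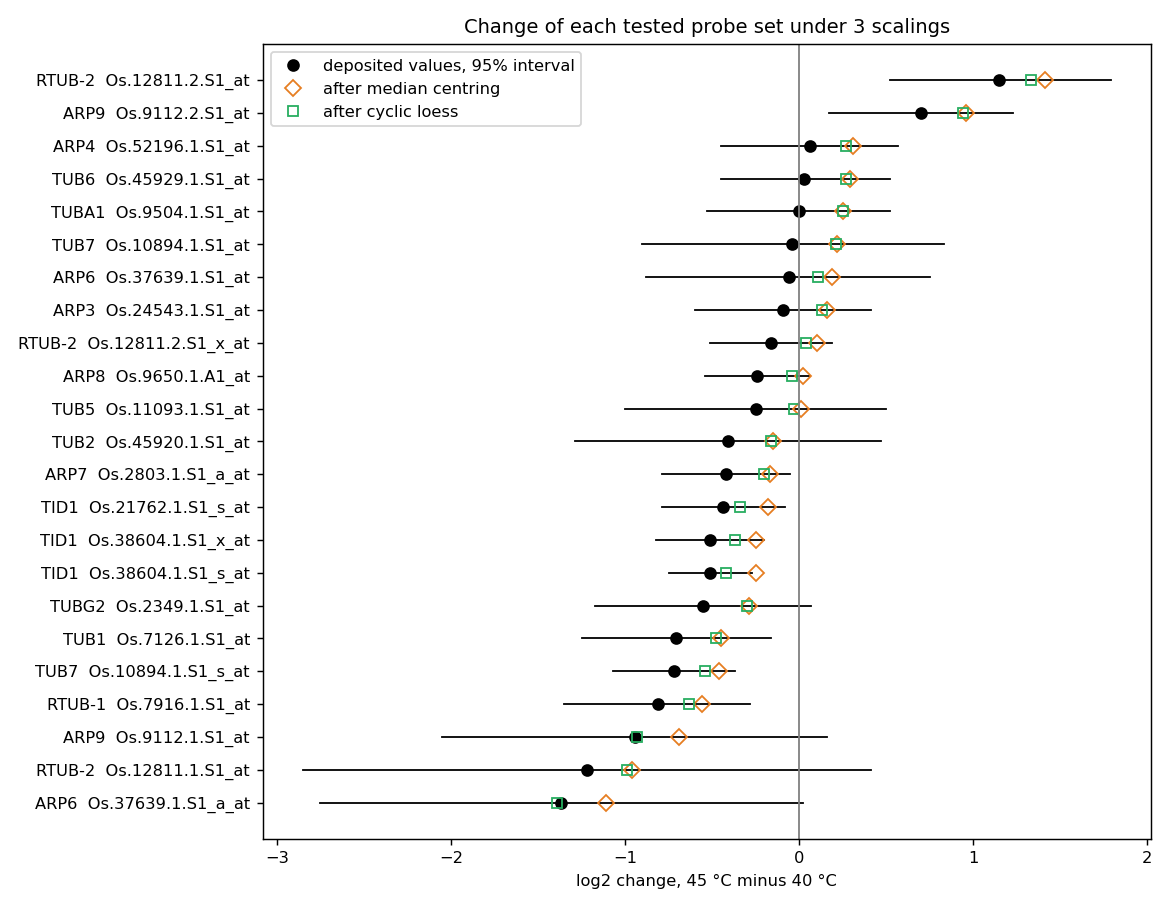
Log2 change, 45 °C minus 40 °C (horizontal axis), of the 23 tested probe sets. Black points with lines are limma estimates on deposited values with 95% intervals, diamonds the change after median centring and squares after cyclic loess. Both scalings move most points to the right, and the RTUB-2 and ARP9 probe sets at the top stay above 0 while those of RTUB-1, TUB1 and the shared TUB7 probe set stay below.

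Probe sets of 1 gene were compared with each other. Of 9 pairs of tested probe sets, 3 had changes of opposite sign as deposited (2 pairs of RTUB-2 and that of ARP9), where 35.5% of 2382 pairs of 1612 genes did. This count depends on the scaling and was 5 after each of the 3 scalings. A scaling by array cancels in the difference between 2 probe sets within an array. That difference did not overlap between the groups in 4 of 9 pairs, against 13.7% of all pairs: 2 of RTUB-2, ARP9 and ARP6. The 2 of RTUB-2 share Os.12811.2.S1_at, and all 9 pairs come from genes chosen with earlier results of these data known. The shares of all pairs given here are thus a description and not a test. The separation was narrow for ARP9 (2.81 against 2.86) and ARP6 (0.63 against 0.70). For ARP9 the brighter probe set exceeded the dimmer by 1.77, 2.81 and 1.0 at 40 °C and by 4.09, 2.86 and 3.56 at 45 °C. The difference thus widened by 1.64 ± 0.55 (SE) at 45 °C, and 1.26% of all pairs differed at least as much in either direction. For RTUB-2, Os.12811.2.S1_x_at exceeded Os.12811.2.S1_at by 3.65, 4.08 and 4.03 at 40 °C and by 2.24, 2.94 and 2.65 at 45 °C. The gap narrowed by 1.31, with an SE of 0.30, between probe sets made from the same sequence. The brighter of them is an x probe set, so its signal may include other transcripts.

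The pair of RTUB-2 made from different sequences, Os.12811.1.S1_at and Os.12811.2.S1_at, differed by 0.77, 3.02 and 1.32 at 40 °C and by -2.20, -0.36 and 0.54 at 45 °C. Their order turned in 2 of 3 arrays at 45 °C. The changes differed by -2.37 ± 0.86 (SE), a size reached by 0.084% of all pairs. This was the largest of the 9 pairs, named after the values were seen. With each array left out in turn the difference ran from -2.98 to -1.61. ARP6 widened by 1.3 ± 0.52 (SE). Each of these 4 pairs had an exact two-sided permutation p of 0.1, the smallest that 3 arrays against 3 allow, and 0.225 after adjustment over the 9 pairs. In limma fitted over all 2382 pairs, 0% passed at an adjusted p of 0.05, and the smallest adjusted p among the 9 was 0.635. The 3 pairs of TID1 probe sets, in contrast, had differences of changes of -0.07, 0 and 0.07. TUB7 had -0.68 ± 0.46 (SE), and -0.21 without replicate 2 at 40 °C.

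**Figure D4:**
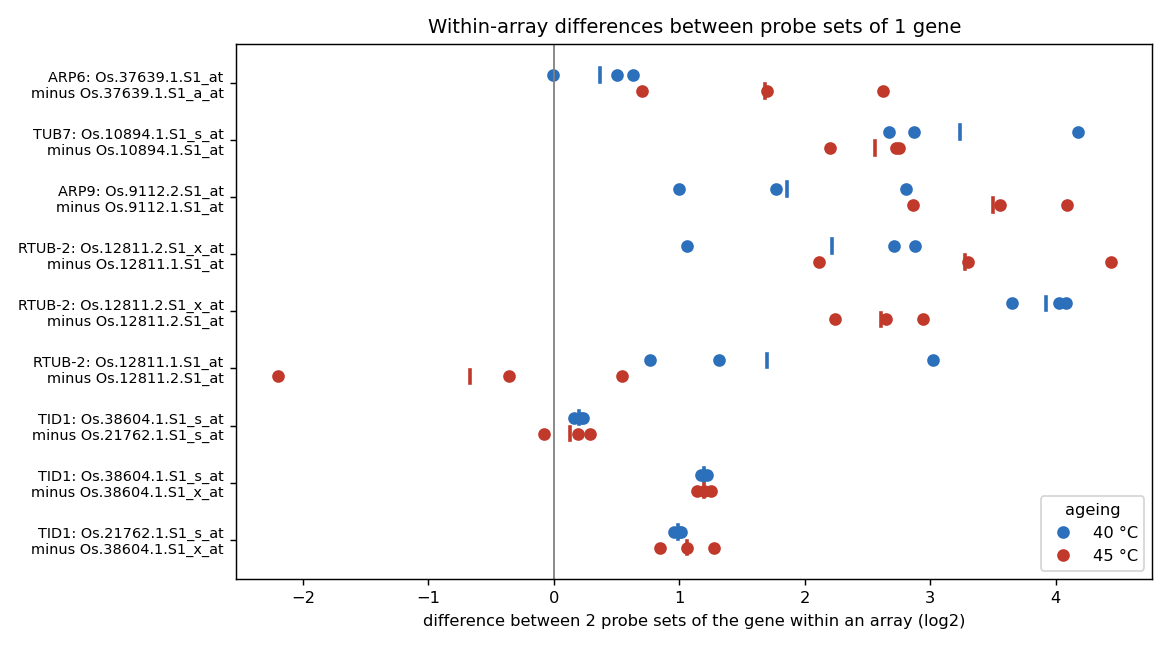
Difference between 2 probe sets of 1 gene within an array (horizontal axis, log2) for the 9 pairs of tested probe sets. Points are arrays and bars the means of the 40 °C and 45 °C groups (n = 3). The groups are apart for ARP6, ARP9 and 2 pairs of RTUB-2, and lie together for the 3 pairs of TID1.

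Other genes of the cytoskeleton were taken by name, in a list of 77 genes of which 46 were tested. No gene of the list passed the adjusted threshold. At an unadjusted p under 0.05, 12 were lower at 45 °C and 0 higher, against 17.3% and 0.997% of all genes, and 33 of the 46 (71.7%) were lower in all, against 78.7% of all genes. After median centring 24 (52.2%) were lower, against 51.1%. The median change was -0.28, against -0.26 for all genes, and it was -0.02 after median centring. By family, 4 of 4 actins, 5 of 6 actin-depolymerizing factors, which sever filaments, 3 of 4 formins, which elongate them, and 1 of 2 villins, which bundle them, were lower as deposited. The same held for 4 of 5 Rac/Rop GTPases, switches upstream of the cytoskeleton, 13 of 18 kinesins, the motors of microtubules, and 2 of 3 MAP70 proteins, which bind microtubules. After median centring the direction of the actin-depolymerizing factors turned, with 1 of 6 lower, and the other counts were 3 of 4 actins, 3 of 4 formins, 1 of 2 villins, 3 of 5 Rac/Rop GTPases, 10 of 18 kinesins and 2 of 3 MAP70 proteins. The other scalings gave the same counts except for kinesins (11 after quantile normalization and 13 after cyclic loess). Of all genes 58.1% were lower after quantile normalization and 59.9% after cyclic loess. A remaining 4 tested genes had matched by name alone and are in the counts of the list above. Without them 11 of 42 were lower at that unadjusted p and 0 higher, and 32 of 42 (76.2%) were lower in all.

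KIN14L, a kinesin, and OsRac3 had the smallest p of this list among genes that were lower. KIN14L had 4.94, 5.52 and 5.04 at 40 °C and 4.14, 4.0 and 4.24 at 45 °C, without overlap, a change of -1.04 ± 0.25 (SE) with limma adjusted p = 0.172. OsRac3 had 8.23, 8.73 and 8.78 at 40 °C and 7.85, 7.58 and 7.74 at 45 °C, also without overlap, a change of -0.85 ± 0.21 (SE) with limma adjusted p = 0.172. Toward higher levels the smallest p belonged to the kinesins KIN14K (0.40 ± 0.25 SE) and KIN5C (0.27 ± 0.29 SE), both with overlap. Among the actins, which build the filaments themselves, ACT3 and ACT1 had groups without overlap, both lower, where 23.4% of all genes were, and are named here after their values were seen. ACT2 (-0.50 ± 0.49 SE) and ACT7 (-0.08 ± 0.20 SE) overlapped. ACT3 had 8.60, 8.02 and 8.51 at 40 °C and 7.45, 7.90 and 7.78 at 45 °C. ACT1 had 8.91, 8.96 and 9.09 at 40 °C and 8.55, 8.85 and 8.71 at 45 °C. After median centring the change was -0.41 for ACT3 and -0.03 for ACT1, and it was -0.78 for KIN14L and -0.60 for OsRac3. The plot of cytoskeletal genes gives every family.

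**Figure D5:**
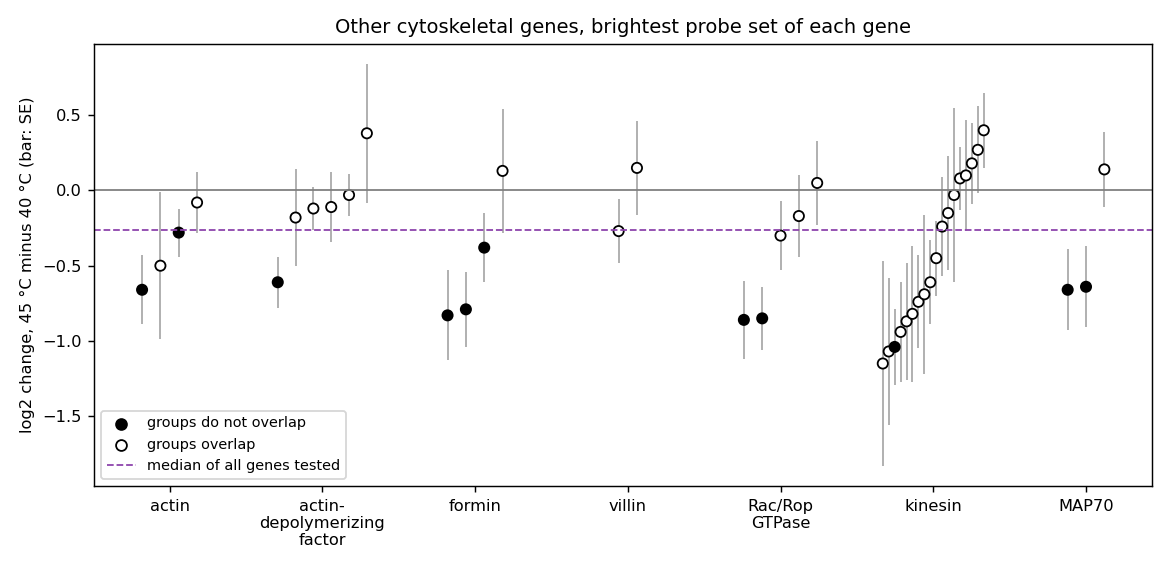
Log2 change, 45 °C minus 40 °C (vertical axis), of the brightest probe set of each tested gene in 7 families of cytoskeletal genes, with the SE from limma as bars. Filled points are genes whose groups do not overlap, and the dashed line is the median of all genes tested, -0.26. All filled points lie below 0, where 2726 of all genes tested were lower without overlap and 245 higher, and kinesins range from -1.15 to 0.40.

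The genes most like RTUB-2 over the 6 arrays, by Pearson correlation of brightest probe sets among 1692 named genes, were OsSAPK7 (0.938), MYBS2 (0.932) and STT3-A (0.928). For ARP9 they were MFT1 (0.957), DAGAT (0.955) and OsSPS3F (0.950). These values describe 6 arrays that share the shift between groups and the deviation of replicate 2 at 40 °C. A correlation of at least 0.9 was reached by 10 genes for RTUB-2 and 6 for ARP9, but by 133 for ARP7 and 108 for RTUB-1. These counts hold for the brightest probe set alone. The other RTUB-2 probe sets reached 68 (Os.12811.1.S1_at) and 5 (Os.12811.2.S1_at), and the other ARP9 probe set 27.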

How the data were processed

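RNA from 6 samples was hybridised to the Affymetrix Rice Genome Array, after amplification and biotin labelling of 50 ng of total RNA, per the labels' protocols. The authors deposited expression values in log2 units, a value for each probe set on each array, and the submitters' processing notes name GCRMA, whose version is not stated there. The number of arrays limits the precision. Values ran from 0.563 to 14.6. Of 57258 non-control probe sets, 22436 had 1 gene in the platform annotation, named through the gene table of assembly ASM3414082v1.

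Probe sets with a mean of at least 4 entered a two-sided limma fit (version 3.58.1, R 4.3.3; lmFit and trended eBayes), with Benjamini-Hochberg adjustment over all 22214. The procedure was tested on simulated data. Within-array differences were compared with exact permutation tests. All probe sets of the matching genes were reported. In the cytoskeleton list the 2 genes of smallest p per direction were named, and the 3 genes most correlated with each member were found. The members and lists were chosen with earlier results of these data known. The labels do not say that a replicate number marks a shared lot, so the main fit had no block. Deviations of samples with the same number had correlations of 0.0303, -0.143 and -0.0371, which cannot settle whether the samples were paired. Alternatives were other expression minimums, scalings, weights, a covariate, a block and leaving out each array.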

Additional observations from a re-analysis of the deposited data

How the results depend on the processing

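No probe set of a tubulin or actin-related protein gene, and no gene of the cytoskeleton list, passed the adjusted threshold under any alternative run. The count over all probe sets was 193 with array weights (178 lower, 15 higher) and 44 with the 3-prime minus 5-prime covariate. It was 0 to 69 when leaving out 1 array (69 without replicate 2 at 40 °C). With the replicate block it was 0, although the labels do not say that the numbers pair the samples. The cause of these changes was not tested. Signs turned after median centring for the probe sets of TUB7 (Os.10894.1.S1_at, 0.217), TUB5 (0.008), RTUB-2 (Os.12811.2.S1_x_at, 0.097), ARP3 (0.161), ARP6 (Os.37639.1.S1_at, 0.191), TUBA1 (0.253) and ARP8 (0.018), after quantile normalization for TUB7 (0.194), RTUB-2 (0.044), ARP3 (0.111), ARP6 (0.159) and TUBA1 (0.253), and after cyclic loess for TUB7 (0.21), RTUB-2 (0.044), ARP3 (0.127), ARP6 (0.114) and TUBA1 (0.247). With the covariate ARP6 was 0.169 and TUB6 -0.016, and with array weights TUB6 was -0.045. Leaving out 1 array gave -0.442 to 0.186 for TUB7, -0.559 to 0.086 for TUB5, -0.261 to 0.097 for ARP3, -0.342 to 0.102 for ARP6, -0.659 to 0.045 for TUB2, -0.109 to 0.115 for TUB6, -0.064 to 0.265 for ARP4 and -0.13 to 0.079 for TUBA1. The differences between TID1 probe sets then ranged from -0.15 to 0.036, -0.026 to 0.029 and -0.033 to 0.179. Pairs of opposite sign numbered 6 without an expression minimum, 0 with a minimum of 6 (fewer probe sets), 5 after each scaling and 4 to 5 when leaving out 1 array. The median change of the cytoskeleton list was -0.02 after median centring, -0.057 after quantile normalization, -0.051 after cyclic loess, and it ran from -0.355 to -0.244 as arrays were dropped singly. Dim probe sets may have been limited by signal over background, which was not tested.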
